A study of Mus musculus with 15 samples.

Results

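The genes described here are those whose products remove superoxide and peroxides, make and use glutathione, or run the thioredoxin cycle, together with their regulator NRF2, heme oxygenases, metallothioneins and sestrins. The rule lists them by gene symbol, and 62 of the 47069 genes in the count table matched: 23 glutathione transferases, 8 glutathione peroxidases, 7 genes of the peroxiredoxin group (6 peroxiredoxins and sulfiredoxin, Srxn1), 6 of the thioredoxin system, 4 superoxide dismutases and catalase, 4 genes of glutathione synthesis and reduction, 5 of the NRF2 group, 2 metallothioneins and 3 sestrins. RNA was sequenced from the left ventricle of C57BL/6 mice in 3 groups of 5 libraries. The PBS and rHCI groups had a myocardial infarction, an injection into the heart muscle on day 7 of either phosphate-buffered saline (PBS) or rHCI, a hydrogel of recombinant human collagen type I, and were taken 2 days after that injection. The Sham group had a sham operation and no treatment and was taken at 10 weeks of age, described as age matched; the labels give no age for the infarcted mice. All hearts were perfused with PBS, and frozen ventricle was ground to powder before RNA was extracted, so each library mixes all cells of the powder it came from. Each title carries its own animal-like number (Sham 16 to 20, PBS 2, 6, 9, 12 and 14, rHCI 1, 3, 7, 11 and 13), and values are listed in that order throughout. Infarction and injection cannot be told apart in either comparison with Sham, because no infarcted heart went without an injection.

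Superoxide dismutases turn superoxide into hydrogen peroxide, which catalase, the glutathione peroxidases and the peroxiredoxins reduce further. Most of these peroxidases draw their electrons from glutathione or thioredoxin, which are kept reduced with NADPH by glutathione reductase and the thioredoxin reductases. NRF2 (Nfe2l2), held back by KEAP1, turns on many of these genes through a short DNA element called the antioxidant response element. Cardiomyocytes are packed with mitochondria, where some of the members work.

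The libraries held 32978702 to 103356830 counts. Muscle markers were high in every library: the 10 cardiomyocyte markers summed to 89128 to 97471 CPM (count shares after TMM scaling of the library sizes) in Sham, 44576 to 64037 in PBS and 46787 to 71834 in rHCI. Of those 10 markers 9 were lower in PBS than in Sham and none was higher, while 10 of 10 fibroblast and matrix markers (summed 1276 to 1570 CPM in Sham and 14743 to 21536 in PBS), 9 of 10 macrophage and monocyte markers (243.5 to 296 and 767 to 1024) and 6 of 6 tested neutrophil markers were higher. Endothelial markers moved little (5 of 10 higher, 1 lower, summed 1275 to 1497 and 1371 to 1550), and 0 of 7 tested red blood cell markers passed in either direction. Atrial markers summed to 204 to 369 CPM in Sham, 2730 to 4252 in PBS and 1351 to 4754 in rHCI (4 of 5 tested higher and 1 lower in PBS against Sham), most of it Nppa, which stressed ventricle also makes, and mesothelial markers to 18.2 to 29.5, 61.3 to 118 and 61.4 to 118 (7 of 7 higher). The source of the atrial and mesothelial markers was not tested. None of the cardiomyocyte, fibroblast, macrophage or neutrophil markers was at 0 in every library of a group. PBS 6 alone held lung markers, at a sum of 75.9 CPM against at most 0.65 in each other library; the 46 members called in PBS against Sham all kept their call without it.

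In the infarcted, saline-injected ventricle the antioxidant genes split in opposite directions. Heme oxygenase 1, extracellular superoxide dismutase and glutathione peroxidases 1, 3, 7 and 8 rose, while most glutathione transferases, the mitochondrial enzymes Sod2, Prdx3, Txn2 and Txnrd2, and Nqo1 fell. Of 62 members 55 had enough counts to be tested in PBS against Sham, and 15 were higher, 31 lower and 9 not called in edgeR's quasi-likelihood test at a Benjamini-Hochberg adjusted p below 0.05. Of all 16207 genes tested, 36.5% were higher and 34.9% lower (71.4% called in all), so a call by itself was common in this comparison. The median log2 fold change was -0.35 over the 55 members and -0.01 over all genes; a log2 value of 1 is a 2-fold difference. In 11 members every PBS library lay above every Sham library and in 30 every one lay below, against 31.5% and 27.2% of all genes (58.7% together). In a bulk powder, fewer cells of a type and less RNA per cell cannot be told apart. Scaling by library totals alone, in place of TMM, moved the median of all genes to 0.27 and the members to 22 higher and 24 lower. Of all 16207 genes 8938 were higher and 2610 lower under that scaling. Gsr, Gstm4, Gstt1, Gstt2, Mgst1 and Txnrd1 were then called higher, Prdx1 turned from lower to higher, and Cat, Gstm6, Hmox2, Keap1, Mt1 and Txnrd3 lost their calls as lower.

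**Figure D1:**
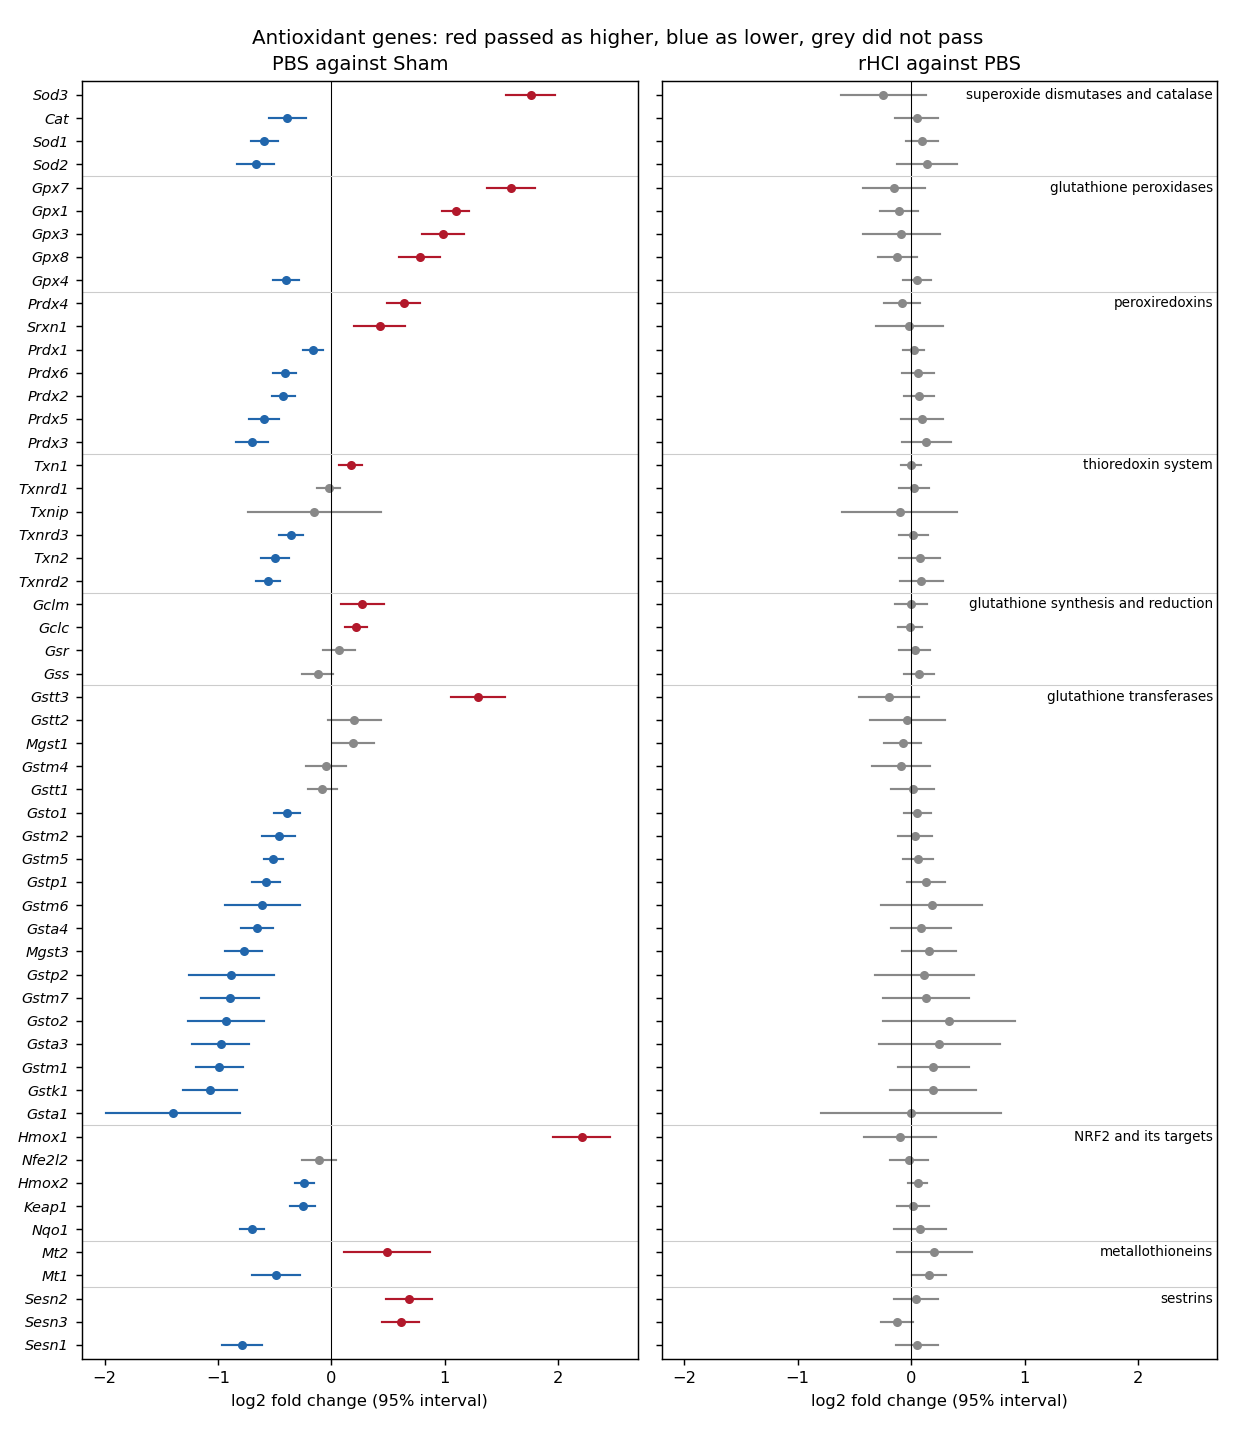
Log2 fold changes (horizontal axis) with 95% intervals for the 55 members tested, in PBS against Sham (left) and rHCI against PBS (right), grouped by family from top to bottom. Red points passed as higher, blue as lower and grey did not pass: 15 members are red and 31 blue on the left, and all 55 are grey on the right.

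Among the enzymes that meet superoxide, the extracellular one rose and the intracellular ones fell. Sod3 (chr5:52363791-52371418, plus strand in GRCm38, GENCODE M21) encodes the secreted dismutase bound to matrix. Its level was 36.5, 30.7, 32.8, 35.03 and 30.4 CPM in Sham, 119.8, 115, 117, 124 and 83.2 in PBS and 84.7, 132, 105, 75.1 and 73.05 in rHCI. Every infarcted library lay above every Sham library, and PBS 14 was the lowest of its group. The log2 fold change in PBS against Sham was 1.76 (SE 0.10, adjusted p = 8.17e-09, edgeR).

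Sod2 (chr17:13006846-13040063, plus strand), the manganese dismutase of the mitochondrial matrix, stood at 726, 715, 668, 710.5 and 715 CPM in Sham, 446, 456, 425, 377 and 522 in PBS and 486, 373, 451, 530.3 and 604 in rHCI. The groups did not overlap with Sham, the highest infarcted value being rHCI 13. It fell by 0.67 on the log2 scale in PBS against Sham (SE 0.07, adjusted p = 3.23e-06, edgeR). Sod1, the copper-zinc enzyme of the cytosol, went from 192 ± 11.9 (SD, n = 5) to 127 ± 7.46 CPM, a log2 fold change of -0.59; it overlaps Scaf4 on the opposite strand, and whether counting used strand is not given in the sources used here. Catalase (Cat, chr2:103453849-103485160, minus strand), which splits hydrogen peroxide in peroxisomes, was 261, 233, 250.2, 257 and 299.7 CPM in Sham, 195, 203, 190.1, 178 and 229.5 in PBS and 199.5, 175, 191, 221 and 239.9 in rHCI. All PBS libraries were below all Sham libraries, whereas rHCI 13 was above Sham 17. Its log2 fold change was -0.39 (adjusted p = 0.000394, edgeR), and it did not pass under library totals (-0.12). Per kilobase of merged exon, Cat was the highest of the family in Sham at 99.6 CPM per kb, against 70.6 for Sod2, 48.3 for Sod1 and 8.85 for Sod3; the Sod2 models merge to 10008 bases, which lowers its value.

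Of the glutathione peroxidases, named for reducing peroxides with glutathione, 4 of 5 tested members rose and 1 fell. Among all genes tested in PBS against Sham 36.5% were higher and 34.9% lower. Summed, the family went from 602 ± 35.7 to 774 ± 35.03 CPM, with 749 ± 76.3 in rHCI. Gpx3 (chr11:54902453-54910377, plus strand), the secreted plasma enzyme, measured 197, 147, 172, 192 and 173 CPM in Sham, 351, 365, 339.5, 390.0 and 297 in PBS and 389, 411, 345, 264 and 227 in rHCI. Its lowest infarcted value, in rHCI 13, was above its highest Sham value. The log2 fold change in PBS against Sham was 0.98 (SE 0.09, adjusted p = 3.72e-07, edgeR).

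Gpx1 (chr9:108338903-108340343, plus strand), the widely expressed cytosolic enzyme, was 54.7, 49.8, 50.8, 52.6 and 52.9 CPM in Sham, 111, 111, 112, 125 and 100.2 in PBS and 97.1, 113, 114, 91.9 and 101 in rHCI, with no overlap between Sham and either infarcted group. It rose by 1.098 (SE 0.06, adjusted p = 2.53e-09, edgeR), the smallest adjusted p among the 55 members. Gpx7 (chr4:108400390-108406961, minus strand) and Gpx8 (chr13:113042753-113046410, minus strand) encode peroxidases of the endoplasmic reticulum, where disulfide bonds of secreted proteins are made. Gpx7 measured 5.92, 5.86, 5.005, 6.97 and 5.95 CPM in Sham, 16.5, 18.2, 19.6, 19.7 and 14.7 in PBS and 15.5, 20.02, 17.5, 14.2 and 12.6 in rHCI, a log2 fold change of 1.58 (SE 0.10) in PBS against Sham.

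Gpx8 measured 18.99, 18.1, 15.8, 22.1 and 18.1 CPM in Sham, 32.1, 32.2, 33.4, 34.3 and 27.7 in PBS and 28.8, 33.7, 29.8, 26.6 and 27.5 in rHCI, a log2 fold change of 0.78 (SE 0.08). Neither gene's Sham values overlapped with the infarcted ones. Gpx4 (chr10:80047166-80056439, plus strand), which reduces lipid peroxides in membranes and guards against ferroptosis, was the member of the family that fell: 344, 327, 346, 367 and 364 CPM in Sham, 249, 272, 258, 252 and 292 in PBS and 268, 251, 278, 275 and 296 in rHCI. All infarcted values were below all Sham values, and the log2 fold change was -0.40 (SE 0.05, adjusted p = 1.52e-05, edgeR). Per length Gpx4 led the family in Sham, at 203 CPM per kb against 97.1 for Gpx3 and 36.2 for Gpx1. In PBS the means were 192 for Gpx3 and 153 for Gpx4. Gpx2, the epithelial form, and Gpx5 and Gpx6, the epididymal and olfactory forms, had at most 2 counts in any library and were not tested.

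**Figure D2:**
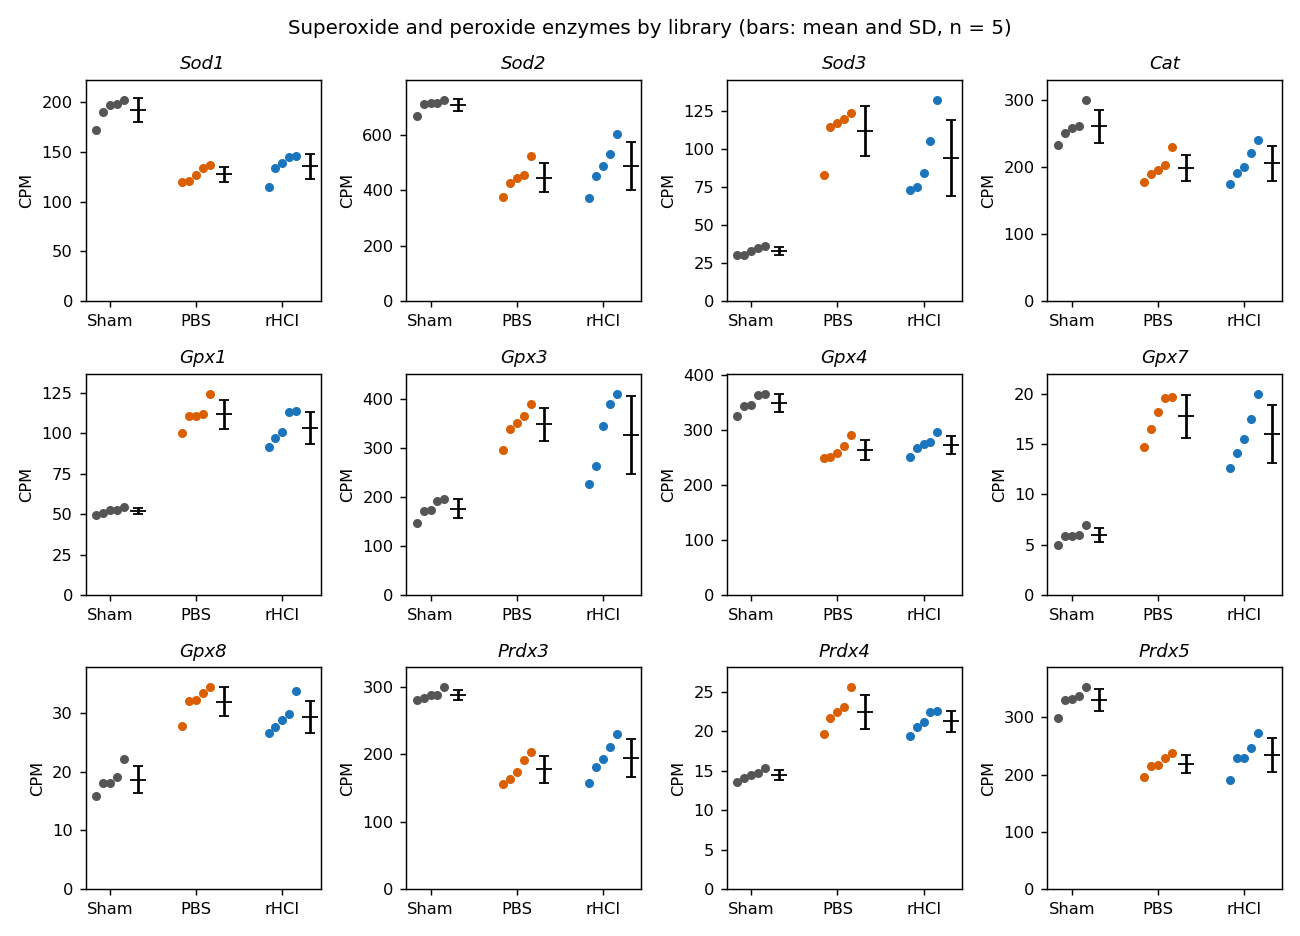
Level in CPM (vertical axes, from 0) of 12 superoxide- and peroxide-removing enzymes in the 15 libraries; points are libraries sorted within each group, and bars are the mean and SD of 5. Sod3, Gpx1, Gpx3, Gpx7, Gpx8 and Prdx4 are above Sham in all infarcted libraries, while Sod1, Sod2, Gpx4, Prdx3 and Prdx5 are below it.

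Most peroxiredoxins reduce peroxides with thioredoxin, and 5 of 7 genes of the group fell while Prdx4 and Srxn1 rose. The shares over all genes tested in PBS against Sham were 34.9% lower and 36.5% higher. Prdx3 (chr19:60864051-60874556, minus strand), the mitochondrial form and per length the highest of the group, was 288, 280.0, 288, 283 and 299 CPM in Sham, 163, 191, 174, 156 and 202 in PBS and 193, 158, 181, 209.9 and 230.0 in rHCI. Sham did not overlap with either group, and the log2 fold change was -0.70 (SE 0.07, adjusted p = 6.81e-07, edgeR). Prdx5, found in mitochondria, peroxisomes and cytosol, fell from 330.3 ± 19.7 to 219 ± 15.8 CPM (log2 -0.60). The cytosolic Prdx2 (log2 -0.42) and Prdx6 (-0.41), which also acts on phospholipids, fell less; Prdx2 and Prdx5 overlap other genes on the opposite strand. Prdx1, the other main cytosolic form, was called lower at -0.16 but higher at 0.11 under library totals, so its direction rests on the scaling.

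Prdx4, the form of the endoplasmic reticulum, rose from 14.5 ± 0.679 to 22.5 ± 2.16 CPM (log2 0.64, SE 0.07), with no overlap. Srxn1, which repairs over-oxidised peroxiredoxins, rose by 0.42 (SE 0.10, adjusted p = 0.00248, edgeR), from 19.4 ± 1.88 to 25.9 ± 4.64 CPM. Summed over the group, the level went from 1414 ± 40.9 to 1053 ± 51.7 CPM, with 1104 ± 93.04 in rHCI.

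In the thioredoxin system the mitochondrial pair fell. Txn2, mitochondrial thioredoxin, went from 192 ± 7.68 to 136 ± 11.3 CPM (log2 -0.50), and Txnrd2, the reductase that recharges it, from 38.9 ± 1.71 to 26.4 ± 1.46 CPM (-0.56). The cytosolic partners differed: Txn1 rose by 0.17 (SE 0.05, adjusted p = 0.00554, edgeR), and Txnrd1 was not called (log2 -0.02, 95% interval -0.12 to 0.08). Txnrd3, a thioredoxin-glutathione reductase best known from testis, fell as well (log2 -0.35; -0.08 and not called under library totals). Txnip (chr3:96557957-96561883, plus strand), which binds thioredoxin and restrains glucose uptake, varied more than any other member of the system. It measured 1187, 486, 905, 355 and 658 CPM in Sham, 753, 672, 760.4, 427 and 622 in PBS and 749, 399, 373, 741 and 754 in rHCI. The Sham group alone spanned both infarcted groups, with Sham 16 the highest and Sham 19 the lowest of the 15 libraries. Its log2 fold change of -0.15 (SE 0.27, adjusted p = 0.635, edgeR) was not called, and its sign turned to 0.10 without Sham 16 or with limma-voom, and to 0.13 under library totals. The labels give no time of day or feeding state, to which this gene is known to respond, and their part was not tested.

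Glutathione is built from glutamate, cysteine and glycine by glutamate-cysteine ligase, made of a catalytic (Gclc) and a modifier subunit (Gclm), and by glutathione synthetase (Gss). Both ligase subunits were slightly higher in PBS than in Sham. Gclc went from 15.3 ± 0.526 to 17.8 ± 0.641 CPM (log2 0.22, SE 0.05, adjusted p = 0.000734, edgeR) and Gclm from 28.6 ± 3.8 to 34.6 ± 3.18 CPM (0.27, SE 0.09, adjusted p = 0.0127). Gss was not called (-0.12, 95% interval -0.26 to 0.02). Glutathione reductase, Gsr (chr8:33652523-33698163, plus strand), was 25.8, 27.7, 30.6, 29.6 and 31.4 CPM in Sham, 30.6, 28.01, 33.4, 31.6 and 28.5 in PBS and 31.9, 33.6, 29.3, 30.1 and 30.1 in rHCI. The 3 groups overlapped, and the log2 fold change of 0.07 (95% interval -0.08 to 0.21) was not called, although it was under library totals (0.34).

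Glutathione transferases attach glutathione to reactive compounds, and they gave 14 of the 31 falls. In PBS against Sham 14 of 19 tested members (73.7%) were lower, 1 (5.26%) was higher and 4 were not called. Of all genes tested 34.9% were lower and 36.5% higher. Under library totals Gstm4, Gstt1, Gstt2 and Mgst1 were called higher as well, and Gstm6 was not called. Their summed level went from 949 ± 46.1 to 607 ± 57.5 CPM, and 652 ± 88.2 in rHCI. Mgst3 (chr1:167371966-167393841, minus strand), a membrane-bound enzyme and per length the highest of the family, was 218, 203, 209.5, 224 and 238 CPM in Sham, 119, 142, 125, 109.8 and 145 in PBS and 137, 109.9, 141, 157 and 168 in rHCI. No infarcted library reached the lowest Sham library, and it fell by 0.77 on the log2 scale (SE 0.07, adjusted p = 9.45e-07, edgeR).

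Gstk1 (chr6:42245935-42250447, plus strand), the kappa-class enzyme of mitochondria and peroxisomes, was 59.9, 55.9, 59.9, 63.3 and 66.9 CPM in Sham, 28.2, 35.8, 27.9, 21.2 and 32.5 in PBS and 33.9, 23.2, 27.2, 37.4 and 44.1 in rHCI. Its log2 fold change of -1.07 (SE 0.11, adjusted p = 1.58e-06, edgeR) was the largest fall of a member above 5 CPM, and again the groups did not overlap with Sham. The mu-class genes lie side by side on chromosome 3, with near-identical stretches, so that reads may have been shared among them. Gstm1 (chr3:108012255-108017973, minus strand) was 182, 167, 186, 182 and 199.8 CPM in Sham, 86.9, 109, 91.9, 71.01 and 104 in PBS and 103, 78.8, 95.6, 116 and 135 in rHCI, a log2 fold change of -0.99 (SE 0.10).

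Gstm7 (chr3:107926334-107931817, minus strand) was 44.4, 39.1, 37.01, 42.3 and 43.7 CPM in Sham, 23.1, 25.4, 18.96, 16.4 and 27.5 in PBS and 25.1, 17.1, 21.2, 26.2 and 32.2 in rHCI, a log2 fold change of -0.89 (SE 0.12). Every infarcted library was below every Sham library for both genes. Of the rest of that row, Gstm2 (-0.46), Gstm5 (-0.51) and the scarce Gstm6 (-0.61) fell and Gstm4 was not called (-0.04). Gsta3 (chr1:21240589-21265661, plus strand), an alpha-class enzyme, was 6.02, 6.23, 5.82, 4.96 and 6.34 CPM in Sham, 3.39, 3.05, 3.36, 2.27 and 3.02 in PBS and 3.03, 2.23, 2.38, 4.53 and 5.66 in rHCI. All PBS values were below all Sham values (log2 -0.97, SE 0.12), while rHCI 13 lay inside the Sham range.

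Gsta4, which clears the lipid peroxidation product 4-hydroxynonenal, fell by 0.65 on the log2 scale, from 61.5 ± 2.12 to 39.1 ± 4.16 CPM. The neighbouring pi-class genes both fell, Gstp1 by 0.57 and Gstp2 by 0.88; as close copies they are uncertain one by one. The omega-class Gsto1 fell by 0.40 and its neighbour Gsto2, at about 1 CPM, by 0.93. Gsta1, under 1 CPM in every library, had the largest fall of all members (-1.395, SE 0.27, adjusted p = 0.000454, edgeR) and shares sequence with Gsta2. The theta class went the other way or did not move: Gstt3 rose from 1.97 ± 0.192 to 4.82 ± 0.564 CPM (log2 1.29, SE 0.11), while Gstt1 (-0.08) and Gstt2 (0.20) were not called. Mgst1, the abundant microsomal form of liver, missed the threshold at 0.19 (adjusted p = 0.0561, edgeR). Gsta2, Gstm3, Gstt4 and Mgst2, with 0 to 18 counts in each library, were not tested in this comparison.

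NRF2 itself did not pass, and its textbook targets did not move together. Nfe2l2 (chr2:75675513-75704641, minus strand) was 109, 86.5, 98.9, 89.8 and 97.8 CPM in Sham, 80.6, 86.95, 88.2, 103 and 87.4 in PBS and 81.8, 91.9, 100.3, 82.5 and 82.3 in rHCI. The groups overlapped widely, and the log2 fold change of -0.11 (95% interval -0.26 to 0.04) was not called; it was 0.17 under library totals, and -0.17 and called (adjusted p = 0.0293, edgeR) without PBS 12. Keap1 (chr9:21229730-21239361, minus strand), the adaptor that marks NRF2 for degradation, was 74.2, 73.6, 75.3, 77.8 and 79.8 CPM in Sham, 64.8, 65.99, 61.4, 57.9 and 69.8 in PBS and 65.1, 57.6, 60.8, 69.8 and 69.03 in rHCI. All infarcted values lay below Sham, with a log2 fold change of -0.25 (adjusted p = 0.00065, edgeR) that became 0.02 under library totals.

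Hmox1 (chr8:75093621-75100589, plus strand), the inducible oxygenase that breaks down heme and is abundant in macrophages that clear red cells, had the largest change of all members. It measured 5.23, 6.57, 5.42, 6.44 and 5.17 CPM in Sham, 29.1, 27.8, 28.1, 27.9 and 19.6 in PBS and 23.98, 30.9, 27.99, 18.7 and 22.02 in rHCI. The lowest infarcted value was far above the highest Sham value, and PBS 14 stood below its group. The log2 fold change was 2.21 (SE 0.12, adjusted p = 3.70e-09, edgeR). Nqo1 (chr8:107388225-107403206, minus strand), the quinone reductase often used as a readout of NRF2, fell instead: 46.3, 48.04, 47.2, 49.5 and 53.5 CPM in Sham, 28.99, 29.4, 30.04, 30.1 and 32.03 in PBS and 30.1, 25.7, 27.8, 33.8 and 41.4 in rHCI. Again no infarcted library overlapped with Sham, and the log2 fold change was -0.70 (SE 0.05, adjusted p = 3.63e-08, edgeR). Hmox2, the constitutive oxygenase, was called lower at -0.24 and stood at 0.04, not called, under library totals; it overlaps Cdip1 on the opposite strand.

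The antioxidant response element is shown here because members whose promoter held its letters moved both ways. Its core, TGACNNNGC (N is any base), was searched on both strands in the 250 bases before each RefSeq start (GRCm38.p6). Hmox1, Gclc, Gsr, Sod3, Gsta4, Gstt2 and Prdx6 had no such window and were not searched, which left 55 of the 62 members. Of these 55 members 11 (20%) held a match, against 11.5% of all 27025 genes with such a window and 10.2% of all windows. In PBS against Sham 3 of the 11 were higher (Gclm, Sesn2 and Mt2), 5 lower (Prdx1, Sod1, Gsta3, Gstm5 and Gstm7) and 3 not called (Nfe2l2, Txnrd1 and Mgst1). Of all 55 members tested 27.3% were higher and 56.4% lower, and of all genes tested 36.5% and 34.9%. Some of these calls were not stable. Under library totals Prdx1 (0.11), Txnrd1 (0.25) and Mgst1 (0.47) were called higher. Mt2 lost its call without Sham 17, Sham 18 or PBS 2. With a minimum change of 1.2-fold Gclm, Mt2 and Prdx1 were not called. The windows below read 5' to 3' on the gene's strand, with the match in capitals; where the match lies on the other strand its reverse complement is in capitals. They show Gclm (chr3:122245413-122245441, plus strand), Sesn2 (chr4:132510474-132510502, minus strand) and Mt2 (chr8:94172529-94172557, plus strand), which rose, and Prdx1 (chr4:116685456-116685484, plus strand), Sod1 (chr16:90220696-90220724, plus strand) and Gsta3 (chr1:21240454-21240482, plus strand), which were called lower.
Gclm: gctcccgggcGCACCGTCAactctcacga
Sesn2: cgcagcgggcTGACAGAGCcgggcgagcg
Mt2: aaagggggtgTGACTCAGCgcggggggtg
Prdx1: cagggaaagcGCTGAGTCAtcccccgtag
Sod1: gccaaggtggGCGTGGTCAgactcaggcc
Gsta3: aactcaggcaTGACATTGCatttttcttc
A match is a run of letters and not a measured binding site, and its absence from other windows says only that these letters are not there.

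The metallothioneins, small proteins that bind zinc and copper and react with oxidants, lie next to each other on chromosome 8 and were called in opposite directions. Mt1 (chr8:94179082-94180327, plus strand) was 132, 97.7, 127, 140.2 and 149 CPM in Sham, 94.8, 97.2, 78.5, 92.8 and 98.2 in PBS and 94.2, 109.6, 97.9, 102 and 111 in rHCI. Sham 17 lay within the infarcted range and the other 4 Sham libraries above it, and the log2 fold change in PBS against Sham was -0.49 (SE 0.10, adjusted p = 0.000537, edgeR; -0.21 and not called under library totals). Mt2 (chr8:94172664-94173568, plus strand) was 20.2, 15.1, 15.8, 21.4 and 31 CPM in Sham, 35.2, 27.4, 22.6, 32.03 and 29.2 in PBS and 29.2, 44.5, 29.8, 27.1 and 37.4 in rHCI. Sham 20 lay inside the range of both infarcted groups. Its log2 fold change of 0.49 (SE 0.18, adjusted p = 0.0228, edgeR) no longer passed when Sham 17 (0.40), Sham 18 (0.40) or PBS 2 (0.41) was left out. Per length, Mt1 was at 104 and Mt2 at 35.2 CPM per kb in Sham, and at 74.1 and 49.8 in PBS.

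Sestrins are stress-induced proteins that restrain mTORC1. Sesn1 (chr10:41809935-41908424, plus strand), a target of p53 and FOXO factors, was 218, 209.8, 279, 196 and 234 CPM in Sham, 131, 125, 140.0, 127 and 136 in PBS and 141, 116, 120.1, 164 and 141 in rHCI. All infarcted values were below all Sham values, and it fell by 0.79 on the log2 scale (SE 0.08, adjusted p = 1.63e-06, edgeR). Sesn3, also a FOXO target, rose: 9.54, 9.55, 8.14, 7.69 and 8.53 CPM in Sham, 14.4, 12.9, 13.9, 13.03 and 12.2 in PBS and 12.1, 13.1, 11.97, 12.3 and 11.3 in rHCI, again without overlap (log2 0.61, SE 0.08). Sesn2, an ATF4 target, rose from 4.79 ± 0.618 to 7.698 ± 0.606 CPM (log2 0.68, SE 0.10).

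**Figure D3:**
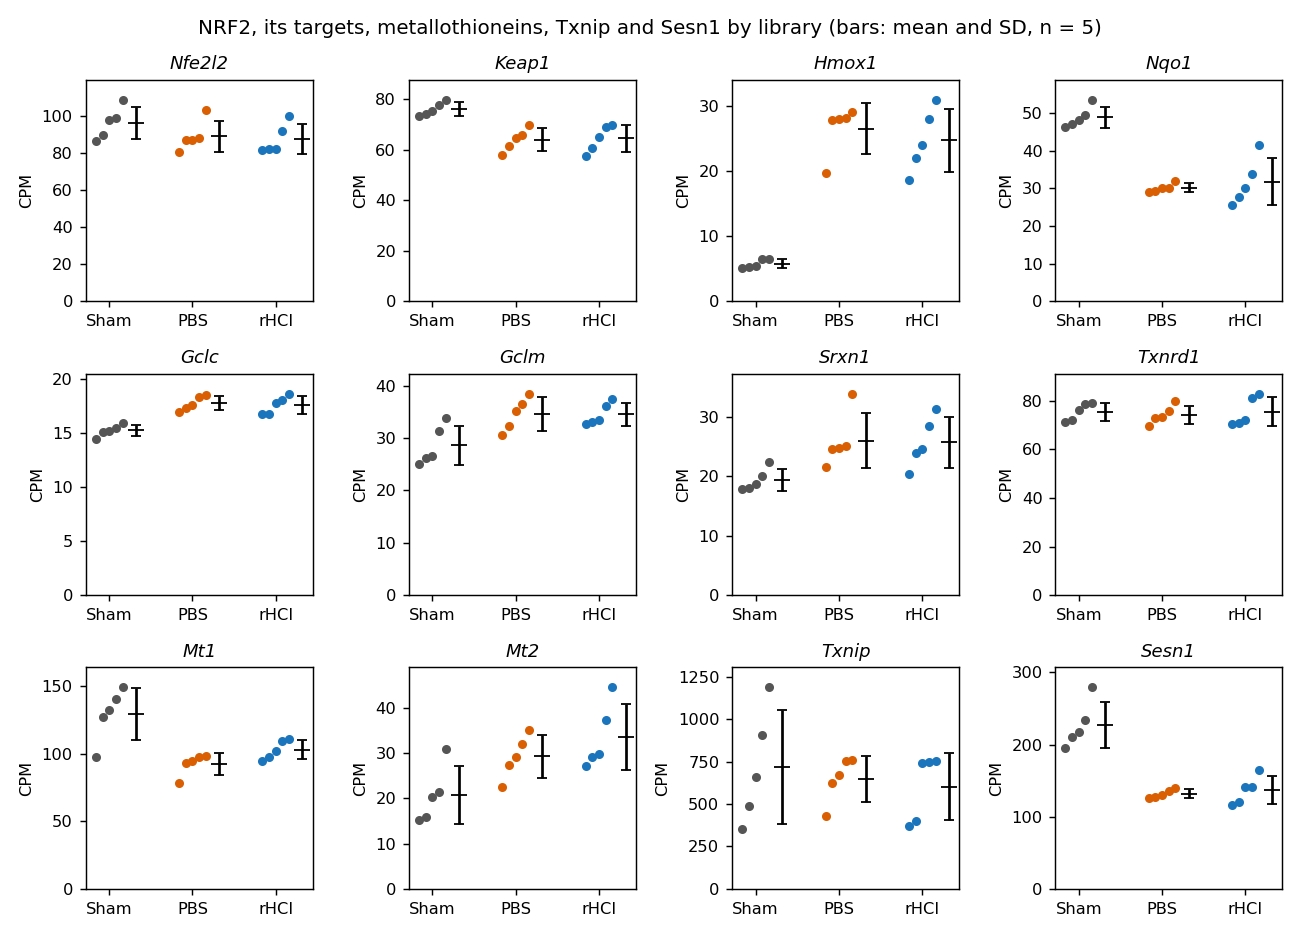
Level in CPM (vertical axes, from 0) of NRF2 and KEAP1, of 6 genes often listed as NRF2 targets, of Mt1 and Mt2, and of Txnip and Sesn1; points are the 15 libraries sorted within each group, and bars are the mean and SD of 5. Hmox1 is higher and Nqo1 lower than Sham in all 10 infarcted libraries, while Nfe2l2, Txnrd1 and Txnip overlap between the groups.

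Grouped by where their proteins are known to work, a grouping made with these values in view, the mitochondrial Sod2, Prdx3, Txn2 and Txnrd2 all fell, whereas the secreted Sod3 and Gpx3 and the reticulum enzymes Gpx7, Gpx8 and Prdx4 all rose. Neither direction was particular to these places. The cytosolic Sod1 (-0.59) and Prdx2 (-0.42) and the membrane-bound Mgst3 (-0.77) also fell, and the cytosolic Gpx1 (1.098) rose. The cell markers moved beside the falls and the rises: cardiomyocyte markers had a median log2 fold change of -0.88 in PBS against Sham, fibroblast and matrix markers 2.20, macrophage markers 2.02, atrial markers 2.05 and mesothelial markers 2.52. Mitochondrially encoded transcripts made up a median of 16.3% of counts in Sham and 10.97% in PBS. The part of these shifts in the member changes was not tested. The infarcted libraries differed among themselves in the level of muscle markers, and each member was set against that level. How much muscle each powder held was not measured.

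Across the 10 infarcted libraries (5 PBS, 5 rHCI), each member's log2 CPM was compared with a cardiomyocyte score, the mean log2 CPM of the 10 muscle markers, which ran from 11.53 in PBS 12 to 12.12 in rHCI 13. Of 55 members 25 correlated positively and 8 negatively at an adjusted p below 0.05 (100000 permutations, two-sided, Benjamini-Hochberg over 16383 genes), where 19.7% of all genes were positive and 17.4% negative (37.1% either). The median absolute r was 0.79 over members and 0.60 over all genes. Score and level come from the same library and are both shares of its counts. Prdx3 followed the score in rank order without exception (Pearson r = 0.99, Spearman rho = 1, permutation p = 1e-05 for both, the smallest that 100000 permutations give, adjusted p = 0.000448 and 0.0009899). Without PBS 12 and rHCI 13, the libraries farthest from the median score, r was 0.98, and it was 0.98 within PBS and 0.9972 within rHCI.

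Sod2 also rose with the score (r = 0.96, permutation p = 2e-05, rho = 0.98, permutation p = 2e-05), with r = 0.93 without those libraries, 0.92 within PBS and 0.9954 within rHCI. Mgst3 (r = 0.97), Prdx2 (0.96), Prdx5 (0.95), Gstm1 (0.94) and Cat (0.94) kept r between 0.88 and 0.95 and an adjusted permutation p below the threshold without the same 2 libraries. Sod3 ran the other way (r = -0.96, permutation p = 1e-05, rho = -0.98, permutation p = 2e-05), with r = -0.95 without them, -0.91 within PBS and -0.97 within rHCI. Gpx8 (r = -0.94, permutation p = 0.00017, rho = -0.93, permutation p = 0.00041) and Hmox1 (r = -0.86, permutation p = 0.00157, rho = -0.84, permutation p = 0.00374) kept r of -0.94 and -0.93.

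Fewer members passed when those 2 libraries were left out, which leaves 8 and makes the same r harder to call: 12 members were then positive and 3 negative, while 8.01% and 5.35% of all genes were. Gpx7 (r = -0.90, then -0.83), Prdx4 (-0.89, then -0.84), Gpx3 (-0.84, then -0.72), Sesn3 (-0.79, then -0.75), Gstk1 (0.91, then 0.82) and Keap1 (0.86, then 0.81) had smaller r and were among those that no longer passed. Gpx1 (-0.82, then -0.83) and Nqo1 (0.78, then 0.82) kept their r but no longer passed either. The members nearest to 0, none of them called, were Gclm (r = 0.03, rho = 0.03), Gsta1 (0.11, rho 0.13), Gclc (-0.16, rho -0.25), Mt2 (-0.17, rho -0.30) and Mgst1 (0.15, rho 0.18), with permutation p-values from 0.409 to 0.946. Within the 8 infarcted libraries of the shared sequencing run, 22 members were positive and 7 negative, beside 17.2% and 15.1% of all genes. With levels and score centred within each group 23 members were positive and 6 negative, beside 18% and 13.6% of all genes.

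**Figure D4:**
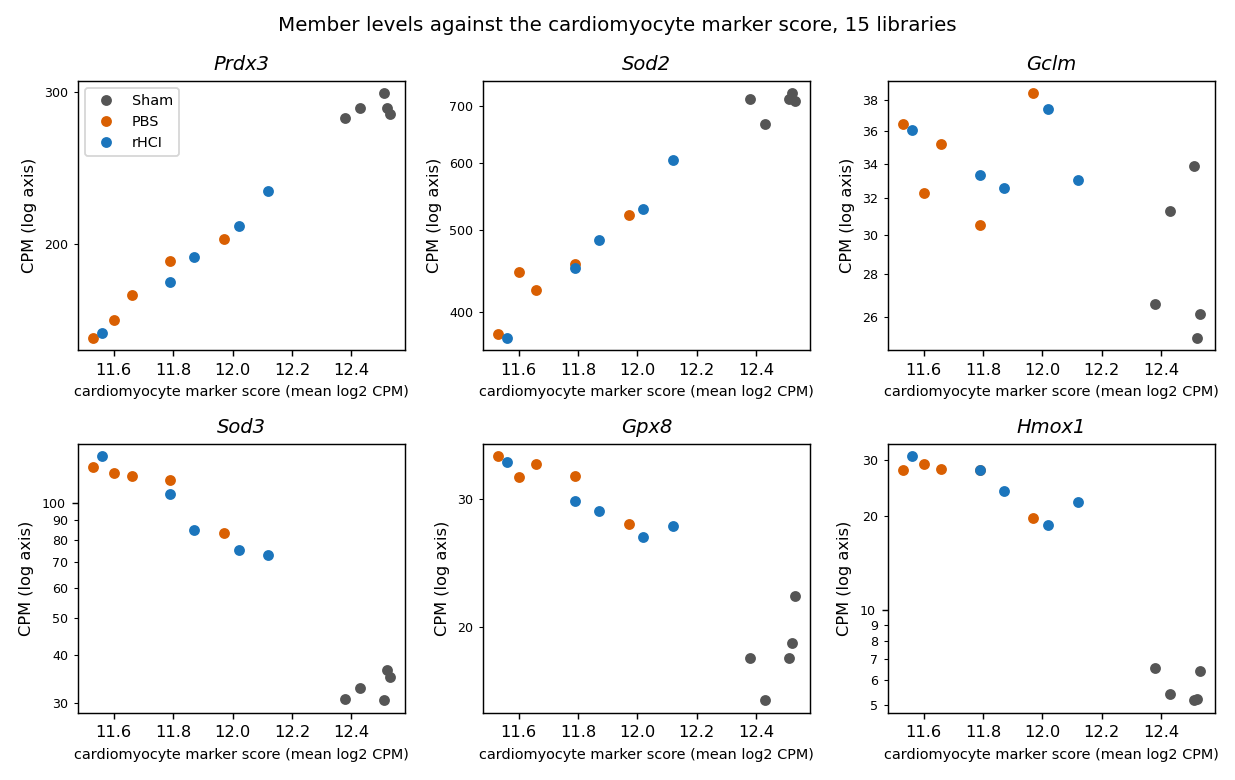
Level in CPM (vertical axis, log scale) of 6 members against the cardiomyocyte marker score (horizontal axis, mean log2 CPM of 10 markers) in 15 libraries coloured by group. Among the 10 infarcted libraries Prdx3 and Sod2 climb with the score, Sod3, Gpx8 and Hmox1 decline, and Gclm (r = 0.03) does neither; the Sham libraries sit at the right.

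The hydrogel was compared with saline in infarcted hearts. No member passed: of 55 tested, 0 were called by edgeR's quasi-likelihood test, as was 0% of all 16383 genes, and 1 member had an unadjusted p below 0.05, against 579 of all genes. Those counts moved with single libraries: without rHCI 3 they were 11 members and 2066 genes, without PBS 14 they were 3 and 1435, without PBS 2 they were 1 and 362, and without rHCI 11 they were 0 and 375, with no member called in any of them. Without rHCI 13 edgeR called 3 genes, all lower and none a member. DESeq2 called 6 genes (3 higher, 3 lower) and limma-voom 3 (all lower), none of them a member. The median log2 fold change over members was 0.05 (37 positive, 18 negative) and over all genes 0.00147, and in no member were the groups apart, against 0.531% of all genes (0.165% higher, 0.366% lower). The member with the smallest p was Mt1, at 0.16 (95% interval 0.01 to 0.31, unadjusted p = 0.03796, adjusted p = 0.871, edgeR); rHCI 1 and rHCI 7 lay inside the PBS range listed above. Next came Sesn3, at -0.13 (-0.27 to 0.01, unadjusted p = 0.0699, edgeR).

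Gstp1, a pi-class transferase, was the third, with 49.5, 57.5, 55.9, 51.1 and 60.2 CPM in PBS and 58.3, 50.6, 60.6, 61.1 and 69.2 in rHCI, and 83.4, 77.1, 77.9, 81.7 and 87.6 in Sham. The PBS and rHCI ranges overlapped, with 3 rHCI libraries above all of PBS, and the log2 fold change was 0.13 (-0.04 to 0.30, unadjusted p = 0.115, edgeR). The missed threshold does not show that the groups were alike, and the intervals set the limit: they lay within 1.2-fold in either direction for 25 members and within 1.5-fold for 49. Wide ones belonged to scarce genes, such as Gsta1 (lowest bound -0.79) and Gsto2 (highest bound 0.92), and to Txnip (-0.61 to 0.40). Of 4 members described above, 2 were higher and 2 lower in PBS against Sham. For the 2 that were higher, the estimates for rHCI against PBS were -0.10 for Hmox1 (-0.41 to 0.22) and -0.24 for Sod3 (-0.62 to 0.13). For the 2 that were lower, they were 0.14 for Sod2 (-0.13 to 0.40) and 0.19 for Gstk1 (-0.19 to 0.57). Muscle markers moved beside these without passing: 10 of 10 cardiomyocyte markers had positive values (median 0.17) and 10 of 10 fibroblast and matrix markers negative ones (median -0.22), and their part was not tested.

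Against Sham, the hydrogel group gave 15 members higher and 31 lower of 56 tested, with a median log2 fold change of -0.28, where 34.1% of all 16076 genes were higher and 29.7% lower (63.9% called). Groups were apart for 12 members upward and 27 downward, against 27% and 22.4% of all genes (49.4% together). This comparison shares its Sham libraries with the one above. The values were 2.12 for Hmox1 (SE 0.14), 1.52 for Sod3 (SE 0.15), 1.44 for Gpx7 (SE 0.13) and 0.9993 for Gpx1 (SE 0.07). On the falling side they were -0.87 for Gstk1 (SE 0.14), -0.78 for Gstm1 (SE 0.11), -0.55 for Prdx3 (SE 0.08), -0.61 for Nqo1 (SE 0.11) and -0.52 for Sod2 (SE 0.10). Mt2 was 0.71 and Mt1 -0.32, both called, the latter -0.09 and not called under library totals. Mgst2, tested in this comparison only, was not called (0.50, 95% interval -0.13 to 1.14). Gsto2 (adjusted p = 0.0497, edgeR) and Gstm6 (adjusted p = 0.0426, edgeR) sat at the threshold and were lost in most fits that left out a library. Under library totals the members stood at 21 higher and 21 lower, where 8011 of all 16076 genes were higher and 2128 lower.

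Genes that feed or use the same chemistry, 106 in 7 lists, were counted in the same way. Of 103 tested in PBS against Sham 38 (36.9%) were higher and 38 (36.9%) lower, near the shares of all genes given above (36.5% and 34.9%). Under library totals 60 of the 103 were higher and 17 lower, where 8938 of all 16207 genes were higher and 2610 lower. The balance within lists moved too: NADPH supply then had 7 higher and 4 lower, and cystine and glutathione turnover 8 and 4. Methionine sulfoxide reductases and selenoproteins had 8 and 2, and metal handling 5 and 0. NRF2 regulators and targets had 14 and 4, thiol oxidoreductases 11 and 1, and further transferases 7 and 2. The counts per list below are those under TMM. In rHCI against PBS 0 were called, and in rHCI against Sham 37 (35.9%) were higher and 34 (33.0%) lower, beside 34.1% and 29.7% of all genes. Their median log2 fold change in PBS against Sham was -0.02, beside -0.01 over all genes. In the list of NADPH supply 5 of 14 rose and 7 fell: Nnt, the transhydrogenase of the inner mitochondrial membrane, went from 1541 to 730.5 CPM (log2 -1.08), while the pentose phosphate enzymes G6pdx (1.06) and Tkt (1.01) rose. Among regulators and further targets of NRF2, 8 of 22 rose and 6 fell, with Akr1b8 (1.82), an aldo-keto reductase, Cbr3 (1.42), a carbonyl reductase, and Ftl1 (1.31), the ferritin light chain, changing most. In cystine and glutathione turnover 5 of 18 rose and 8 fell. Among those with at least 5 CPM, the peptidases Dpep2 (3.399) and Anpep (1.83) and the neutral amino acid carrier Slc1a4 (2.52) rose most. The scarcer cystine carrier Slc7a11, named after its values were seen, had a larger fitted change, from a mean of 0.0609 CPM in Sham to 2.02 in PBS.

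Of 16 glutaredoxins and thiol oxidoreductases 9 rose and 5 fell, led by the reticulum and secretory enzymes Txndc5 (59.3 to 157 CPM, log2 1.403), Qsox1 (0.77) and Pdia4 (0.73). Of 15 methionine sulfoxide reductases and selenoproteins 4 rose and 6 fell, with Selenon (0.89) and Selenom (0.71) of the reticulum up and the mitochondrial Msrb2 (-0.56) down. Of 10 further transferases and related proteins 6 rose and 3 fell, including Hpgds (2.497), the prostaglandin D synthase of mast cells and macrophages, Alox5ap (1.62), which serves leukotriene synthesis in white cells, and the chloride channel protein Clic1 (1.24). Of 8 genes of metal handling 1 rose, the copper chaperone Atox1 (0.36), and 3 fell, among them ceruloplasmin, Cp (-0.40), and Mtf1 (-0.36), the zinc sensor that drives metallothionein genes; under library totals Cp (-0.13) and Mtf1 (-0.08) were not called.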

How the data were processed

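The deposited table holds raw counts per gene for 15 libraries. Per the submitters' processing notes the tools included STAR, Trimmomatic, edgeR and Cufflinks, with GRCm38 and mm10 as builds, and per the labels' protocols the mRNA libraries were stranded. The counting tool, its treatment of shared or opposite-strand reads and the annotation release: not given in the sources used here. Members and lists were chosen with earlier results of these data known.

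Groups of 5 were compared with edgeR 4.0.16 (R 4.3.3; TMM, filterByExpr, quasi-likelihood test, two-sided, Benjamini-Hochberg over all genes tested, threshold 0.05), each pair of groups fitted alone. Levels are CPM on TMM-scaled library sizes; levels between genes are per kilobase of merged GENCODE M21 exons. Muscle correlations use log2 CPM with a prior count of 2; p-values were adjusted over all 16383 genes, not over the members alone as first planned. Values in every library are given for the 6 largest rises and 6 largest falls in PBS against Sham with at least 5 CPM in the higher group, the highest member per length of each family, the 3 smallest p in rHCI against PBS, and Nfe2l2, Keap1, Hmox1, Nqo1, Mt1, Mt2, Txnip, Gpx1, Gpx3 and Gpx4. Those of Sod2 are given as well, outside this rule. Of each pathway list, up to 3 largest changes are given. Alternatives were RLE factors, library totals, DESeq2 1.42.0, limma-voom (limma 3.58.1), no filter or at least 1 CPM in 5 libraries, 1 fit over all 15 libraries, a covariate for the sequencing run, the shared run alone (12 libraries; PBS 6, rHCI 1 and Sham 19 carry other run names), a minimum change of 1.2-fold, and each library left out. The test was checked on simulated counts. Libraries within a group differed by more than counting noise (lowest chi-square per gene 10.7 over 30 pairs); the labels do not state that each library is a separate mouse, so p-values measure the spread between these samples. Of the 106 pathway genes 3 had too few counts, and of 62 members 7 lacked a RefSeq promoter window. Some members overlap a gene on the opposite strand, and since the use of strand in counting is not given in the sources used here, their counts may include reads of that gene.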

Additional observations from a re-analysis of the deposited data

Results flagged for a closer look

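In 7 of 168 groups of 5 libraries, 1 library stood apart from the other 4 by more of the group's range than Dixon's test allows; chance flags about 1 in 20 groups. Within PBS, library PBS 14 was low for Hmox1 (19.6 CPM against 27.8 to 29.1 in the others) and for Sod3 (83.2 against 115 to 124); it also had the highest cardiomyocyte score of its group, 11.97, and the part of that was not tested. Mt1 was 78.5 CPM in PBS 9 against 92.8 to 98.2. Within rHCI, Gsto1 was 106 CPM in rHCI 13, which had the highest score of the infarcted libraries, against 90.8 to 94.2, and the scarce Gstm6 was 0.681 CPM in rHCI 3 against 1.22 to 1.30. Within Sham, Sod2 was 668 CPM in Sham 18 against 711 to 726, and Txn1 was 59.02 CPM in Sham 19, from another sequencing run, against 52.6 to 53.6.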

How the results depend on the processing

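The counts of members called kept within 1.5 times of their values (15 higher and 31 lower against Sham in both comparisons, 0 in rHCI against PBS) under every alternative run but 1: with a minimum change of 1.2-fold, 19 members were lower in rHCI against Sham. Leaving out each library gave 14 to 16 higher and 31 to 32 lower in PBS against Sham, 15 higher each time and 28 to 31 lower in rHCI against Sham, and 0 in rHCI against PBS. Without the 2 libraries farthest from the median score, an alternative chosen after seeing the data, 12 members followed the muscle score and 3 ran against it; 8 libraries then remained. Library totals turned PBS against Sham to 22 higher and 24 lower and rHCI against Sham to 21 and 21 (median of all genes 0.27 and 0.22). Over all genes that scaling gave 8938 higher and 2610 lower of 16207 in PBS against Sham, and 8011 and 2128 of 16076 in rHCI against Sham. In PBS against Sham under library totals, signs turned for Keap1 (0.021), Nfe2l2 (0.17), Txnip (0.13), Prdx1 (0.11), Hmox2 (0.04), Gss (0.15), Gstm4 (0.23), Gstt1 (0.19) and Txnrd1 (0.25), and for Txnip with limma-voom (0.10) and without Sham 16 (0.10; -0.32 to 0.10 over the libraries left out); the cause was not tested. Of 540 values of the genes given library by library, Sod2 not included, under alternatives, over 27 results, 526 kept direction and side of the threshold, 7 lost it, 2 gained it and 5 turned. No paired analysis was possible because the groups share no replicate numbers. Depth limits the 7 members with under 20 counts per library and leaves wide intervals for Gsta1, Gsto2 and Gstm6.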
